A study of Glycine max with 24 samples.

Results

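Untreated leaves of soybean plants labelled as overexpressing GmNFYA were compared with untreated leaves of the wild-type cultivar Jack by counting sequencing reads per gene. The libraries were taken by their sample labels, and the comparison holds 6 of the 24 libraries of the series, 3 per genotype, all from leaf and all at 0 h. The other 18 libraries come from leaves treated with 150 mM NaCl for 6 h and from roots with and without that treatment. They are used here to follow what untreated leaves showed and to choose lists of IDs. The NaCl leaf libraries also entered the fit of the untreated leaves, and with it the count filter, scaling and spread behind each call. The labels give no plant age, no promoter for the transgene, no number of transgenic lines and no statement that replicates came from separate plants. The spread behind each p-value is thus that between libraries and may be technical, and a difference between the genotypes cannot be told apart from a difference between this transgenic line and Jack that has another origin.

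NF-YA proteins are the DNA-contacting subunits of NF-Y, a transcription factor in which NF-YB and NF-YC form a dimer that NF-YA joins, and the complex binds CCAAT sequences in promoters. In Arabidopsis, NF-YA transcripts are targets of a microRNA family, and NF-YA genes there have been studied in responses to water shortage. The tables used here pair no gene ID with a name, and 0 of the 57105 IDs matched the RefSeq gene table that was available. Genes are therefore given by ID, with no function, and in small numbers. The digits before the G of an ID give the chromosome, and the number after it follows the order of genes along that chromosome in the soybean naming scheme.

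Reads assigned to genes numbered 17696429 to 19914961 in the GmNFYA libraries and 18737847 to 21053889 in the Jack libraries. Reads with more than 1 alignment made up 6.13 to 6.24% of counted reads in GmNFYA and 6.4 to 6.75% in Jack, and the 10 most abundant IDs took 3.22 to 4.3% of gene reads in GmNFYA and 4.22 to 6% in Jack. The genotypes differed in how closely their replicates matched. The median SD of an ID between replicates was 0.138 log2 CPM in GmNFYA and 0.221 log2 CPM in Jack, where CPM is the read count relative to library size, after TMM scaling between libraries. An SD above 1 log2 CPM was found for 231 IDs in GmNFYA and 956 in Jack. Jack replicate 2 stood apart: its log2 CPM correlated at 0.9621 and 0.9658 with Jack replicates 1 and 3 across IDs, which are not independent units. Jack replicates 1 and 3 correlated at 0.9789 and the 3 GmNFYA pairs at 0.9819 to 0.988. Pairs of a GmNFYA and a Jack library correlated at 0.9518 to 0.9714, a range that holds both values of Jack replicate 2 with its own group.

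Of 35222 IDs with enough counts to be tested, 810 were higher and 780 lower in GmNFYA leaves, 2.3 and 2.21% and 4.51% in all. An ID is called here, and said to have risen or fallen, where edgeR's quasi-likelihood test gave it a Benjamini-Hochberg adjusted p under 0.05. Most of these differences were small. Under 2-fold were 440 of the IDs that rose and 502 of those that fell, 266 and 190 lay between 2 and 4-fold, 57 and 45 between 4 and 8-fold, and 47 and 43 were at least 8-fold. At least 2-fold apart were 648 IDs, 1.84% of those tested. The CPM of the genotypes did not overlap for 9037 tested IDs (25.7%), among them 1587 of the 1590 called. In the plot of fold change against level, the at least 8-fold differences sat at low mean levels. Of those 90 IDs, 56 had a mean level under 0 log2 CPM, and 2 had a mean of 5 or more. That mean covers both genotypes, so an ID nearly without reads in 1 genotype is placed low by the measure itself. In the genotype with the higher level, the median was 3.15 CPM for the 90 IDs and 19.3 CPM for all called IDs. Abundant IDs behaved otherwise: with a mean of 5 log2 CPM or more, 175 rose and 276 fell among 7020 tested, 2.49 and 3.93%, and their median fold change was -0.04 on the log2 scale. The IDs that rose held 2.75 to 3.13% of gene reads in the GmNFYA libraries and 1.39 to 1.52% in the Jack libraries. The IDs that fell held 2.88 to 3.09% in GmNFYA and 4.93 to 5.23% in Jack. These shares describe the calls and do not test them.

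**Figure D1:**
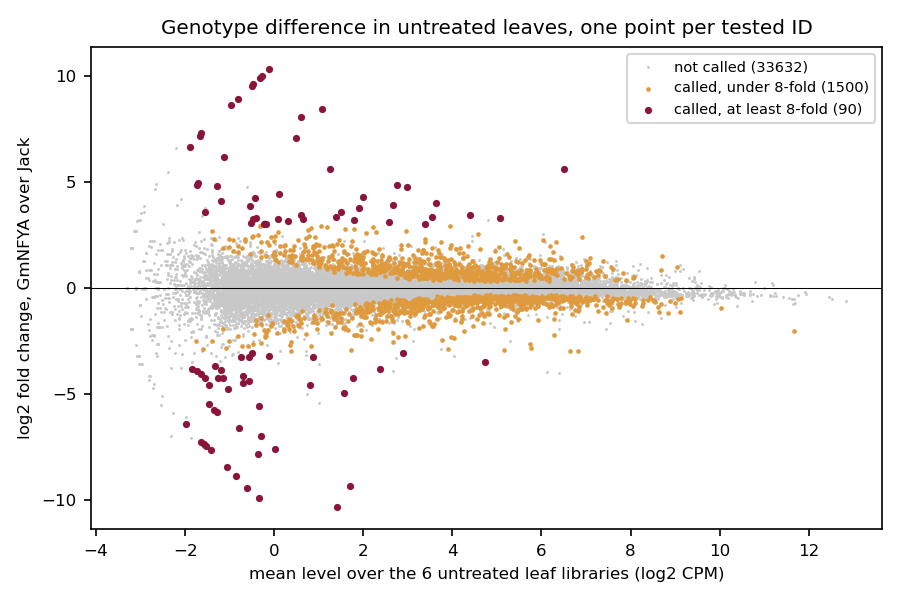
Log2 fold change of GmNFYA over Jack in untreated leaves (vertical axis) against the mean level over the 6 libraries in log2 CPM (horizontal axis), with 1 point per tested ID. Dark red points are the 90 called IDs that differed at least 8-fold, most of them at low mean levels. Orange points are the other called IDs, and grey points those not called.

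The count of calls depended on single libraries. Leaving out GmNFYA replicate 1, 2 or 3 gave 511, 968 or 547 calls, and leaving out Jack replicate 1 gave 760. Without Jack replicate 2 it was 1744, of which 688 rose and 1056 fell, and without Jack replicate 3 it was 1761, of which 1061 rose and 700 fell. The balance of rises and falls thus turned with the Jack replicate left out. These were in part other IDs: of the 1590 calls from all libraries, 1117 were among the 1744 and 1174 among the 1761. Large differences were less dependent on the choice of libraries. When any 1 of the 6 libraries was left out, 74 to 85 of the 90 IDs at least 8-fold apart were still called. Of all 1590 calls, 500 to 1174 were.

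The abundant IDs with the largest rises were GLYMA_02G303800 and GLYMA_13G054300. GLYMA_02G303800 had 665, 614 and 629 CPM in the 3 GmNFYA leaf libraries and 11.9, 13 and 13.7 CPM in the 3 Jack leaf libraries. The groups lay far apart with narrow spread, a 49.5-fold difference (log2 fold change 5.63 ± 0.133 SE, edgeR adjusted p = 6.46e-11). The genotypes were 28.5-fold apart in NaCl leaves and 266-fold apart in untreated roots, in the same direction. Its neighbours on chromosome 2 did not differ by as much: of the 10 tested IDs on each side, 20 in all, 1 was called, and their log2 fold changes ran from -1.19 to 0.6. GLYMA_13G054300 had 92.9, 111 and 111 CPM in GmNFYA leaves and 9.34, 9.4 and 13.3 CPM in Jack leaves. All 3 GmNFYA libraries were above all 3 Jack libraries, but lack of overlap in untreated leaves was a condition for naming any ID. GLYMA_13G054300 was 9.82-fold higher in GmNFYA (log2 3.3 ± 0.265, adjusted p = 5.06e-05 by edgeR). Its difference was smaller in NaCl leaves, at 18, 20.2 and 35.5 CPM in GmNFYA and 10.6, 8.7 and 13.2 CPM in Jack. The difference in untreated leaves exceeded that in NaCl leaves by 2.11 ± 0.357 on the log2 scale (edgeR adjusted p = 0.0154). In untreated roots the genotypes overlapped, at 10.1, 20.8 and 30.2 CPM in GmNFYA and 13.3, 13.6 and 14.3 CPM in Jack. They were not called different there (edgeR adjusted p = 0.193).

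The abundant IDs with the largest falls were more variable, and most of that variation lay in Jack. GLYMA_02G156800 had 41, 39.3 and 40.6 CPM in GmNFYA leaves and 434, 77.4 and 433 CPM in Jack leaves. The GmNFYA libraries were nearly equal, and Jack replicate 2 was much closer to them than to the other Jack libraries. The ID was 7.81-fold lower in GmNFYA (log2 -2.97 ± 0.553, edgeR adjusted p = 0.0178), and the call was lost in 5 of 13 alternatives: without GmNFYA replicate 1, 2 or 3 (adjusted p = 0.0803, 0.0605 and 0.0732), without Jack replicate 1 (adjusted p = 0.0553) and with only the 6 untreated leaf libraries in the edgeR fit (adjusted p = 0.0598). In NaCl leaves GLYMA_02G156800 was 2.2-fold lower in GmNFYA but not called (edgeR adjusted p = 0.22). In untreated roots it was 3.26-fold lower and called (edgeR adjusted p = 0.00265). GLYMA_01G142400 had 28.4, 60.1 and 47.3 CPM in GmNFYA leaves and 346, 130 and 572 CPM in Jack leaves, with Jack replicate 2 again the lowest of its group. It was 7.73-fold lower in GmNFYA (log2 -2.95 ± 0.504, adjusted p = 0.0118), a call lost in edgeR without GmNFYA replicate 1 or 3 (adjusted p = 0.0604 and 0.0539). In NaCl leaves it was 4.1-fold lower in GmNFYA and called (edgeR adjusted p = 0.0285). In root it had 2 counts over the 3 GmNFYA libraries and 0 counts in Jack.

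**Figure D2:**
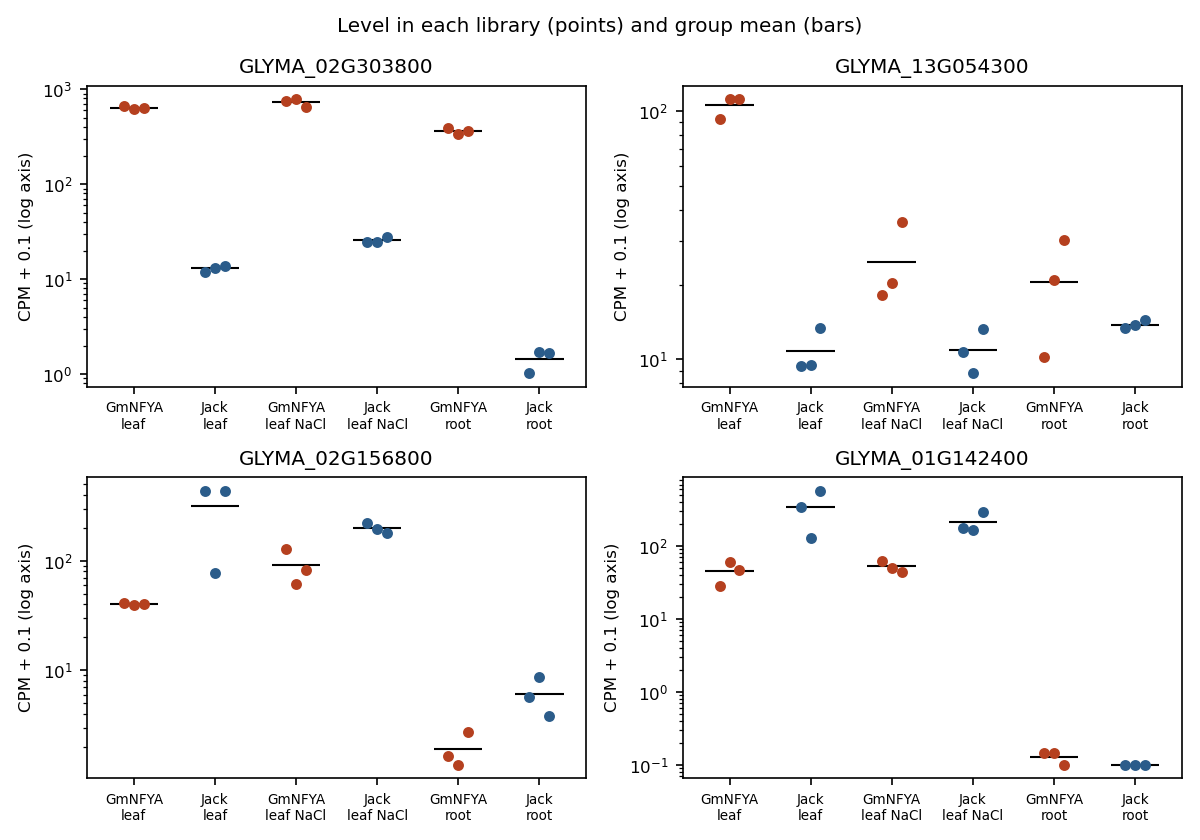
CPM plus 0.1 on a log axis in each library (points) and the group mean (black bars) for the 4 abundant IDs described, in GmNFYA (red) and Jack (blue), for untreated leaves, NaCl leaves and untreated roots. GLYMA_02G303800 separated the genotypes in all 3 settings, whereas Jack replicate 2 of untreated leaves lay well below the other 2 Jack libraries for both IDs that were lower in GmNFYA.

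Some IDs were read in 1 genotype and had no read in the other. Among the called IDs, 9 had 0 counts over the 3 GmNFYA leaf libraries, with means of 0.542 to 6.15 CPM in Jack. Set against 3 counts over the group, they were at least 10.4 to 119-fold lower. In the other direction 10 IDs had means of 0.637 to 8.3 CPM in GmNFYA and 0 counts over the 3 Jack leaf libraries, at least 12.1 to 158-fold higher. These bounds cover counting error only. The same genotype was often without reads elsewhere. Of the 9 IDs without reads in GmNFYA, all 9 also had 0 counts in GmNFYA leaves with NaCl and 7 had 0 counts in untreated GmNFYA roots. Of the 10 without reads in Jack, 8 had 0 counts in Jack leaves with NaCl and 7 in untreated Jack roots. In root, GLYMA_U0046001 of the first group and GLYMA_01G091300 and GLYMA_18G072000 of the second had too few reads to be tested. Their 0 counts there thus do not show a genotype difference in root.

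The at least 8-fold differences were spread unevenly over the chromosomes. The smallest inside that limit was 3.0159 and the largest outside it 2.9705 in absolute log2 fold change. Chromosome 18 held 27 of the 90, which is 1.58% of its 1714 tested IDs against 0.256% of all tested IDs. Of these 27, 11 rose and 16 fell. Chromosomes 3 and 13 held 10 each, 9 of them falls on chromosome 3 and 8 of them rises on chromosome 13, and chromosome 8 held 8, of which 7 rose. Chromosomes 4, 5 and 14 held 0. The 2 IDs not accounted for by a chromosome carry a U in place of the chromosome number. For calls of any size the chromosomes differed less, from 3.2% of tested IDs on chromosome 14 to 7.29% on chromosome 18.

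**Figure D3:**
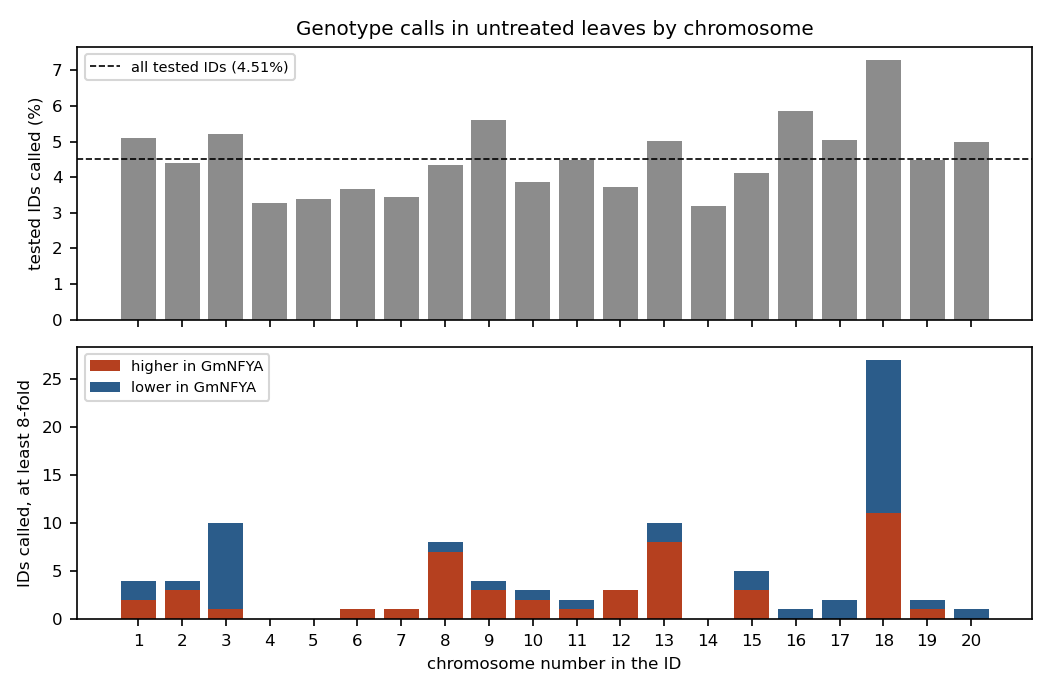
Percent of tested IDs called in untreated leaves for each chromosome number in the ID (upper bars, dashed line at the 4.51% of all tested IDs) and number of called IDs at least 8-fold apart (lower bars, red for higher and blue for lower in GmNFYA). Chromosome 18 had the most of both, with 7.29% called and 27 IDs at least 8-fold apart.

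Within chromosomes, some of the large differences lay close together. When IDs at least 8-fold apart were joined wherever no more than 25 tested IDs separated them, 31 of the 90 (34.4%) fell into 7 runs of 3 or more that spanned 129 tested IDs in all, and the other 59 lay in no run. The rule for these runs was chosen after the data were seen, and nothing was tested with it. Each run was built from called IDs, so its share of called IDs is raised by the rule itself. Over all tested IDs that share was 4.51%. The longest run, from GLYMA_18G078400 to GLYMA_18G091300, held 9 such IDs, 4 that rose and 5 that fell, among 50 tested IDs of which 14 (28%) were called. Rises and falls were mixed in 5 of the 7 runs. A run from GLYMA_03G065700 to GLYMA_03G069100 had 4 falls and no rise, and a run from GLYMA_08G317400 to GLYMA_08G319300 had 4 rises and no fall. In a run from GLYMA_18G226300 to GLYMA_18G226900, 5 of the 7 tested IDs were called, 4 of them at least 8-fold. A second rule, which took no account of fold, asked for at least 10 called IDs among 25 tested neighbours. It gave 2 segments, GLYMA_13G031600 to GLYMA_13G035100 with 10 of 23 tested IDs called, 5 that rose and 5 that fell, and GLYMA_18G080900 to GLYMA_18G087000 with 10 of 25, 6 that rose and 4 that fell. Both only just met the rule, and without any 1 of the 6 untreated leaf libraries it gave 0 segments.

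**Figure D4:**
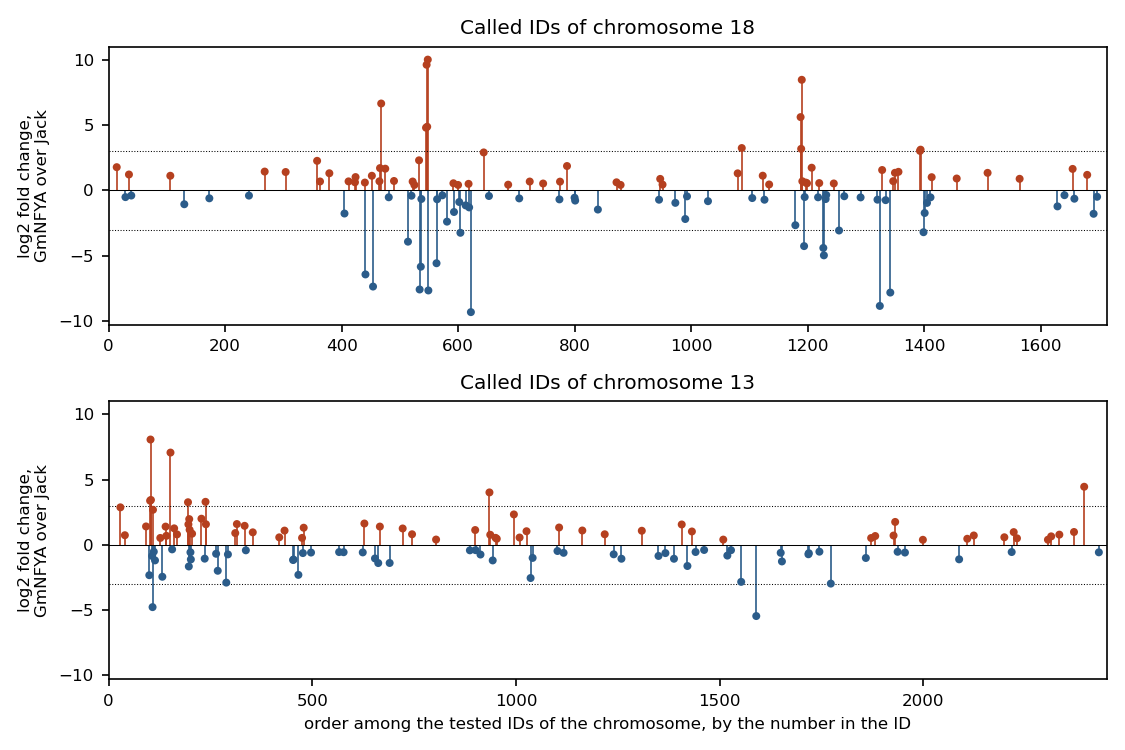
Log2 fold change of GmNFYA over Jack for the called IDs of chromosome 18 (upper panel) and chromosome 13 (lower panel), in the order of the tested IDs along the chromosome, with dotted lines at 8-fold. Of the rises (red) and falls (blue) of at least 8-fold, 19 of 27 on chromosome 18 and 4 of 10 on chromosome 13 lay in runs, with both directions in each run, and the others lay apart from them.

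The same differences were then looked for in libraries that had not chosen them. In leaves with NaCl, GmNFYA and Jack differed in 9.61% of tested IDs, 3.65% higher and 5.95% lower in GmNFYA. That comparison uses other libraries but takes its dispersions from the same fit, and its 3384 calls were 1712, 1527 or 2051 without NaCl GmNFYA replicate 1 or 2 or NaCl Jack replicate 3. Of the 810 IDs that rose in untreated GmNFYA leaves, 247 (30.5%) also rose with NaCl, which is 19.2% of the IDs that rose there. Of the 780 that fell, 318 (40.8%) also fell with NaCl, which is 15.2% of the falls there. A further 72 were called in the opposite direction. With both directions together, recurrence was more frequent from 4-fold upwards, but the step at 4-fold lay mostly in the falls. Between 4 and 8-fold, 20 of 57 rises (35.1%) and 28 of 45 falls (62.2%) recurred, beside 30.5 and 34.2% between 2 and 4-fold. Among IDs under 2-fold apart in untreated leaves, 294 of 942 (31.2%) were called the same way with NaCl, among those 2 to 4-fold apart 146 of 456 (32%), among those 4 to 8-fold apart 48 of 102 (47.1%), and among those at least 8-fold apart 77 of 90 (85.6%), with 0 called the opposite way. Of the 77, 36 were among the 47 large rises and 41 among the 43 large falls. The overall overlap of 565 IDs was 268 without untreated GmNFYA replicate 1 and 267 without replicate 3, whereas the number at least 8-fold apart and called the same way stayed between 65 and 84 without any 1 of the 6 libraries.

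Untreated roots gave a separate fit with no library in common. There the genotypes differed in 23.3% of 36390 tested IDs, 10.7% higher and 12.6% lower in GmNFYA, and these 8490 calls were 5648 without root GmNFYA replicate 2. Of the IDs called in untreated leaves, 199 rose and 214 fell in both tissues, and 163 were called in opposite directions. The shared calls were 24.6 and 27.4% of all leaf rises and falls. Of the 750 leaf rises and 685 leaf falls tested in root, they were 26.5 and 31.2%. They were 5.09 and 4.67% of the root rises and falls. These 413 shared calls numbered 180 once the first GmNFYA leaf library was left out, 191 once GmNFYA replicate 3 was, and 256 once Jack replicate 1 was. For differences under 2-fold in leaf, 212 of 888 IDs tested in root (23.9%) were called the same way and 102 the opposite way. For differences of at least 8-fold, 48 of 68 (70.6%) were called the same way and 2 the opposite way, and 44 of the 90 were called the same way in all 3 comparisons. In the 7 runs, 30 of the 31 IDs at least 8-fold apart were called the same way with NaCl, and 21 of the 27 tested in root were called the same way there.

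**Figure D5:**
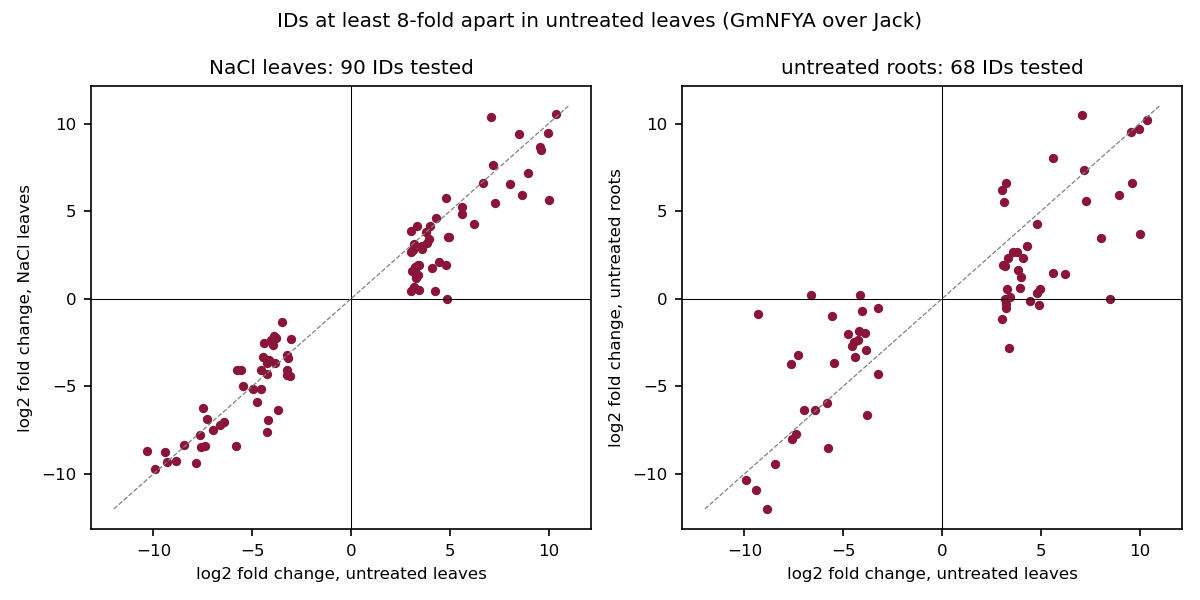
For the IDs at least 8-fold apart in untreated leaves, the log2 fold change of GmNFYA over Jack in NaCl leaves (left, 90 IDs) and in untreated roots (right, the 68 tested there) against that in untreated leaves, with 1 point per ID and a dashed line of equality. In NaCl leaves 77 of the 90 were called in the same direction, and in roots 48 of the 68.

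Whether the genotype difference of untreated leaves itself differed from that in NaCl leaves was tested as a contrast of the 4 leaf groups. It was called for 863 IDs, 2.45% of those tested, with the difference more positive in untreated leaves for 588 (1.67%) and more negative for 275 (0.781%), among them 288 of the 1590 called in untreated leaves. Since these 288 were chosen on libraries that also enter the contrast, their number is not independent of that choice. GLYMA_08G152500 had 122, 131 and 118 CPM in untreated GmNFYA leaves and 45.1, 38 and 65.4 CPM in untreated Jack leaves, and was 2.5-fold higher in GmNFYA. With NaCl the order was turned without overlap, at 7.8, 9.81 and 12.9 CPM in GmNFYA and 46.6, 30.3 and 39.9 CPM in Jack. The log2 difference between the settings was 3.26 ± 0.319 (edgeR adjusted p = 0.000914). GLYMA_14G176300 followed the same pattern with more spread in Jack, at 38.5, 56.4 and 46.5 CPM in untreated GmNFYA leaves and 4.92, 2.26 and 11.3 CPM in untreated Jack leaves. With NaCl it was at 0.622, 1.28 and 1.06 CPM in GmNFYA and 3.4, 14.5 and 28.1 CPM in Jack. Its log2 difference of 6.89 ± 1.1 (edgeR adjusted p = 0.0164) was not called without GmNFYA NaCl replicate 1 (adjusted p = 0.0535). It was 6.11 without NaCl Jack replicate 3 and 7.66 without untreated Jack replicate 3.

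Other IDs were lower in untreated GmNFYA leaves and higher in NaCl GmNFYA leaves. GLYMA_08G034400 had 6.08, 5.22 and 4.39 CPM in untreated GmNFYA leaves and 11.8, 12.8 and 9.73 CPM in untreated Jack leaves. It had 164, 158 and 116 CPM in GmNFYA with NaCl and 42, 50.5 and 27.7 CPM in Jack with NaCl. The genotypes did not overlap with NaCl, and the log2 difference between settings was -2.99 ± 0.311 (edgeR adjusted p = 0.00123). GLYMA_10G051100 had 9.44, 8.32 and 9.54 CPM in untreated GmNFYA leaves and 21.2, 20.3 and 15.9 CPM in untreated Jack leaves, then 59.4, 47.5 and 29.8 CPM in GmNFYA and 21.3, 18.9 and 12.7 CPM in Jack with NaCl (log2 difference -2.44 ± 0.348, edgeR adjusted p = 0.00795). Its Jack levels were alike in the 2 settings and its GmNFYA levels were not. The count of 863 was 462, 242 or 229 without untreated GmNFYA replicate 1, 2 or 3, 322 or 307 without NaCl GmNFYA replicate 1 or 2, 343 or 1339 without untreated Jack replicate 1 or 3, and 561 without NaCl Jack replicate 3. Since untreated plants were sampled at 0 h, NaCl and elapsed time cannot be told apart in these values.

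The difference between the leaf and the root was tested over the 12 untreated libraries of both tissues. It was called for 3333 of 37899 IDs, 8.79%, with the difference more positive in leaf for 1762 (4.65%) and more negative for 1571 (4.15%), among them 633 of the 1586 leaf calls tested there, which again were chosen on libraries that enter the contrast. GLYMA_18G086600 had 32, 37.9 and 36.1 CPM in GmNFYA leaves and 1.39, 1.13 and 1.03 CPM in Jack leaves, a 29.6-fold difference. In root it was at 5.73, 6.68 and 6.24 CPM in GmNFYA and 7.93, 9.01 and 6.75 CPM in Jack, levels that lay close together and were not called different (edgeR adjusted p = 0.113). The log2 difference between the tissues was 5.21 ± 0.21 (edgeR adjusted p = 6.96e-09). GLYMA_13G033000 had 43.1, 32.9 and 37.2 CPM in GmNFYA leaves and 3.93, 2.53 and 4.38 CPM in Jack leaves, but 0.132, 0.128 and 0.0483 CPM in GmNFYA roots and 0.435, 1.08 and 0.754 CPM in Jack roots. It was thus 10.4-fold higher in GmNFYA leaves and 6.88-fold lower in GmNFYA roots (log2 difference 6.13 ± 0.538, edgeR adjusted p = 2.07e-05). Both IDs lie in the segments described on chromosomes 18 and 13.

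Both IDs named for a difference in the other direction had almost no reads in root. The leaf-type IDs described further on were chosen from Jack NaCl libraries, at 50 CPM or more in leaf and under 1 CPM in root. They summed to 108, 116 and 109 CPM in GmNFYA roots and 81.5, 79.1 and 74 CPM in Jack roots. Each GmNFYA root library was thus above each Jack root library. The limit in root was set on Jack alone, so the choice itself favours lower sums in Jack roots. Of these 228 IDs, 58 to 67 had no read in a GmNFYA root library and 70 to 83 in a Jack root library, and their part in the differences between leaf and root was not tested. GLYMA_06G166800 had 85.1, 74.3 and 80.9 CPM in GmNFYA leaves and 140, 131 and 119 CPM in Jack leaves, with 9 counts over the 3 GmNFYA root libraries and 0 counts in Jack roots (log2 difference -5.09 ± 0.995, edgeR adjusted p = 0.00814). GLYMA_10G290700 had 34.6, 35.4 and 30.2 CPM in GmNFYA leaves and 43.7, 48.3 and 48.1 CPM in Jack leaves, likewise with 9 and 0 counts in GmNFYA and Jack roots (log2 difference -4.88 ± 1.34, edgeR adjusted p = 0.0418). With 0 counts in 1 group, the size of such a fitted difference depends on the prior count, and the second call was lost in 11 of 16 alternatives (adjusted p up to 0.109), with a log2 difference of -4.27 without root GmNFYA replicate 3. The count of 3333 was 2152 or 2107 without leaf GmNFYA replicate 1 or 3, 2140 without root GmNFYA replicate 2 and 5308 without leaf Jack replicate 2.

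The title of the series speaks of seeds, whereas the sample labels give leaf and root. The untreated leaf libraries were set beside the other libraries by IDs chosen from Jack libraries with NaCl, outside the comparison. Since that choice rests on the same leaf and root labels, it cannot show which tissue the leaf-labelled libraries as a whole came from. Of 228 leaf-type IDs, at 50 CPM or more in leaf and under 1 CPM in root, 0 were without reads in any of the 6 libraries. Their summed level was 42145, 47606 and 45550 CPM in GmNFYA leaves and 51071, 49857 and 59584 CPM in Jack leaves, so that each GmNFYA library was below each Jack library. The limit in leaf was set on Jack alone, so the choice itself favours higher levels in Jack leaves. Of these IDs 3 rose and 23 fell in GmNFYA, with a median log2 fold change of -0.18 against -0.008 over all tested IDs. The share that fell, 10.1%, stands beside 2.21% of all tested IDs and 3.93% of those with a mean of 5 log2 CPM or more. With the leaf-type IDs chosen from GmNFYA instead of Jack NaCl libraries, 8 rose and 18 fell of 235 (3.4 and 7.66%). Those IDs summed to 51608 to 59210 CPM in GmNFYA leaves and 60248 to 75283 CPM in Jack leaves. Chosen from both genotypes, 3 rose and 17 fell of 171 (1.75 and 9.94%). In bulk leaf tissue, fewer cells of a type and less RNA per cell cannot be told apart. Leaving out GmNFYA replicate 1 gave 5 calls on the Jack-chosen list, all falls, beside 288 rises and 223 falls over all tested IDs. Leaving out GmNFYA replicate 3 gave 8, of which 7 fell, beside 308 rises and 239 falls. Leaving out Jack replicate 1 gave 15, of which 14 fell, beside 350 rises and 410 falls. With DESeq2, 11 rose and 41 fell, beside 1423 rises and 1440 falls over all tested IDs. Root-type IDs, 217 at 50 CPM or more in root and under 1 CPM in leaf, summed to 172, 102 and 120 CPM in GmNFYA leaves and 77.7, 74.8 and 147 CPM in Jack leaves, overlapping ranges, against 30808 to 35424 CPM in GmNFYA roots and 44117 to 47869 CPM in Jack roots. Both limits were set on Jack alone, which favours higher sums in Jack roots and lower sums in Jack leaves. In leaf, 33 to 57 of the root-type IDs had no read in a GmNFYA library and 41 to 62 in a Jack library. Of the 90 tested in leaf, 4 rose and 0 fell, which is 4.44 and 0% beside 2.3 and 2.21% of all tested IDs. Chosen from GmNFYA NaCl libraries, 2 of 105 rose and 1 fell, and chosen from both genotypes 2 of 55 rose and 0 fell. The part of the leaf-type levels in the other differences was not tested.

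The calls of untreated leaves were also set beside the NaCl change of Jack roots, with which they share no library, a comparison chosen after the data were seen. Of the 750 IDs higher in untreated GmNFYA leaves that were tested in root, NaCl raised 339 (45.2%) and lowered 147 (19.6%) in Jack roots. Of the 685 IDs lower in untreated GmNFYA leaves, NaCl raised 252 (36.8%) and lowered 181 (26.4%). In edgeR, NaCl raised 29% and lowered 27.9% of all 36390 IDs tested in root. The median log2 change with NaCl in Jack roots was 0.28 for the higher and 0.14 for the lower leaf IDs, against -0.009 over all. When DESeq2 made both the leaf and the root calls, from longer lists, 634 of its higher leaf IDs were raised and 248 lowered. Of its lower leaf IDs, 462 were raised and 366 lowered. The shares of all root IDs that DESeq2 called were not computed, so these counts have no background beside them. No test of these shares was made, and NaCl and the elapsed 6 h cannot be told apart in them.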

How the data were processed

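The authors deposited 1 table of read counts for leaf and 1 for root, as whole numbers per gene ID and library, not normalized. Per the submitters' processing notes, HISAT2, featureCounts and DESeq2 were used, in roles and versions that were left unsaid. The sources used here do not give the genome build, annotation or strand setting, and without strand, overlapping and antisense genes are uncertain, as are near-identical copies. Each table held 57110 rows. The 5 rows beginning with "__" stayed out of library sizes and tests, and genes held 79.1 to 80.1% of counted reads in the 6 libraries.

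Counts were fitted with edgeR 4.0.16 in R 4.3.3: filterByExpr with a minimum count of 10 (35222 IDs in leaf, 99.91% of gene counts), TMM scaling (0.902 to 1.03 in the 6 libraries), robust dispersions over 4 groups of 3 libraries without covariates, and the quasi-likelihood test with Benjamini-Hochberg adjustment over all tested IDs at 0.05. Roots, and the 12 untreated libraries of both tissues, were fitted likewise. An SE is the log2 fold change divided by the square root of F. CPM uses the TMM factors. Scripts were tested on simulated data. No replicates were identical or within sampling noise.

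Named IDs were called, with no overlap of CPM between genotypes in untreated leaf: the 2 largest rises and 2 largest falls with a mean of at least 5 log2 CPM, and likewise 2 and 2 for each test of a difference (at least 2 log2 CPM). The comparison, lists and rules were chosen with earlier results of these data known. The gene lists by description could not be filled. Bounds against 0 counts use 3 counts over the group. Alternatives were DESeq2 1.42.0, RLE size factors, other count filters, other groups in the fit, a replicate block, a prior count of 2, other windows and leaving out single libraries.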

Additional observations from a re-analysis of the deposited data

Results flagged for a closer look

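The genotype difference of untreated leaves differed, by edgeR's quasi-likelihood test of the difference, from that in NaCl leaves for 863 IDs and from that in untreated roots for 3333 IDs. Among the IDs picked out by the naming rule, the log2 difference between untreated and NaCl leaves was 6.89 for GLYMA_14G176300 and 3.26 for GLYMA_08G152500, both more positive in untreated leaves, and -2.99 for GLYMA_08G034400 and -2.44 for GLYMA_10G051100. The log2 difference between leaf and root was 6.13 for GLYMA_13G033000 and 5.21 for GLYMA_18G086600, both more positive in leaf, and -5.09 for GLYMA_06G166800 and -4.88 for GLYMA_10G290700. GLYMA_06G166800 and GLYMA_10G290700 each had 9 counts over the GmNFYA root libraries and 0 in Jack roots. In the separate root fit the first was not called and the second had too few reads to be tested. The larger spread of the untreated Jack leaf libraries, with a median SD of 0.221 log2 CPM against 0.138 in untreated GmNFYA leaves, enters each of these differences. Its part in them was not tested.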

How the results depend on the processing

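With DESeq2 the 1590 calls of untreated leaves became 2863, the 863 of untreated against NaCl leaves 1908, the 565 shared with NaCl leaves 941 and the 413 shared with roots 742. A 2-fold limit left 648 calls. Fitting only the compared groups left 1271 calls in untreated leaves, 712 higher and 559 lower in GmNFYA, and 365 shared with NaCl leaves. Leaving out single libraries gave 511 to 1761 calls in untreated leaves, 1527 to 3307 in NaCl leaves, 5648 to 8622 in roots, 229 to 1339 for untreated against NaCl leaves, 2107 to 5308 for leaf against root, 267 to 651 shared with NaCl leaves and 180 to 447 shared with roots. The 2 segments became 0 with windows of 50 IDs (0 called IDs in them), 7 with windows of 15 (57 called IDs), 5 with DESeq2 (62 called IDs) and 0 to 0 without any 1 of the 6 libraries. The 90 IDs at least 8-fold apart numbered 75 to 105 without single libraries.

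With the replicate number as a block, untreated leaves gave 1977 calls and untreated against NaCl leaves 1385. The labels do not say that a number pairs libraries, and the deviations of same-numbered GmNFYA and Jack untreated leaf libraries correlated at 0.058, 0.071 and 0.013 across IDs. Of the 6 libraries, 5 correlated best with their own number, and Jack replicate 3 correlated at 0.023 with GmNFYA replicate 1. Among 180 recalculations of the named IDs, 161 kept the call, 19 lost it and 0 changed sign. With 3 libraries per group, 2.8% of IDs under 0 log2 CPM and 6.42% of those at 5 log2 CPM or more were called. The causes of these shifts were not tested.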

Other observations

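Calls were about as frequent among IDs without a place on a numbered chromosome, at 8 of 185 tested, as among all tested IDs at 4.51%. Of 777 tested IDs with a seventh digit after the G, 21 were called.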
